A study of Danio rerio with 10 samples.

Results

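The genes described here are 10 factors of nucleotide excision repair, the pathway that cuts bulky lesions out of DNA: xpa, xpc, ddb2, ercc1, ercc2, ercc3, ercc4, ercc5, ercc6 and rad23b. They were picked out by symbol, from a list drawn up with earlier results of these data known. All 10 were listed in the deposited Ensembl gene tables of both ages, among 14236 genes at 3.3 hours post fertilization (hpf) and 18910 genes at 96 hpf. The RefSeq gene tables listed 8 of the 10, without ercc5 and ercc6.

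RNA from pooled whole zebrafish of the AB line was sequenced at 3.3 hpf, when the embryo is a blastula living largely on RNA from the mother, and at 96 hpf, when it is a larva with formed organs. At each age the exposed animals received benzo[a]pyrene (BaP) at 50 µg/L, and the controls are labelled with a volume of 0.1 mL/L and no agent. Each treatment had 3 libraries at 3.3 hpf and 2 at 96 hpf. All animals were wild type as far as the labels say, and the labels give neither the number of animals in a pool nor the start of exposure. Nothing in them ties replicates to different clutches, so the spread that p-values measure here may not be that between clutches.

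BaP is a polycyclic aromatic hydrocarbon that cells oxidise to diol epoxides, and these bind DNA bases as bulky adducts. In human cells, XPC with its partner RAD23B, helped by the DDB2 complex, finds such lesions anywhere in the genome, while ERCC6 acts where a lesion stalls RNA polymerase. The helicases ERCC2 and ERCC3 of the TFIIH complex then open the DNA, XPA checks the lesion, ERCC5 cuts on the 3′ side and the ERCC4-ERCC1 pair cuts on the 5′ side. Inherited loss of many of these factors, though not of all, causes xeroderma pigmentosum or Cockayne syndrome in people. Roles below are those of the human proteins, carried over by gene name.

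Values are CPM, read counts relative to a library total of 1000000, after scaling between the libraries of an age, given as mean ± SD, without correction for gene length, so levels are compared between groups for a gene and not between genes. Libraries held 17.5 to 22.2 M reads (M, 1000000) assigned to listed genes at 3.3 hpf and 13.2 to 17.7 M at 96 hpf. The lowest members therefore rested on few reads. Estimated reads per library were 42 to 89 for ercc1 and 45 to 93 for ercc6 at 3.3 hpf, and 45 to 67 for xpa at 96 hpf. In the current reference the spans of xpa, ddb2 and ercc6 each overlap that of another gene. Since no strand setting is given, their values may hold reads of that gene, which was not tested. The authors used the older Zv9 build, in which the overlaps were not checked. Exposure was visible in larvae, where cyp1a, the cytochrome P450 gene induced by the aryl hydrocarbon receptor (AhR), stood at 16.0 and 15.6 CPM in controls and 779 and 854 CPM after BaP (log2 5.64, limma adjusted p = 7.45e-07). At 3.3 hpf cyp1a lay between 0.81 and 1.75 CPM in the 6 libraries, with overlapping groups. The ages matched their labels, since 10 of 10 maternal marker genes were listed at 3.3 hpf and 2 at 96 hpf, while liver and exocrine pancreas or gut markers had 0 entries at 3.3 hpf and 7 and 11 at 96 hpf.

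The first comparison set the maternal stock of the repair transcripts beside the larval level in controls. Of the 10 genes, 7 were lower in every 96 hpf control than in every 3.3 hpf control, 2 were higher and 1 overlapped. Among the 12800 genes listed at both ages, 61.3% were lower and 27.2% higher by the same rule, so the share of members is near the background. The median member had a log2 ratio of 96 to 3.3 hpf of -0.83, beside -1.06 over all 12800 genes. The tables of the ages are separate and were scaled here within an age, so these levels stand side by side and were not tested. CPM is a share of a library's reads, so the folds between ages are of shares and not of amounts per animal. In whole animals fewer cells that hold a transcript and less of it per cell cannot be told apart.

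Of the genes for opening and cutting DNA, ercc4 and ercc2 differed most between the ages. The gene for the 5′ nuclease, ercc4, stood at 139, 163 and 111 CPM in 3.3 hpf controls and at 9.80 and 8.71 CPM in 96 hpf controls. Its level was 14.9-fold lower in larvae, at the 5.15th percentile of all genes. The helicase gene ercc2 stood at 103, 78.3 and 91.6 CPM and then at 13.3 CPM in both larval controls, 6.87-fold lower. The other TFIIH helicase gene, ercc3, was 2.04-fold lower, at 39.8 ± 3.76 CPM (n = 3) and 19.6 ± 2.17 CPM (n = 2). The 3′ nuclease gene ercc5 had 16.5 ± 4.38 and 9.07 ± 0.79 CPM, 1.82-fold lower.

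Among the genes for damage recognition, xpc differed most between the ages. It stood at 159, 123 and 127 CPM in 3.3 hpf controls and at 24.1 and 23.1 CPM in larval controls, a 5.77-fold lower level. Its partner rad23b was 1.49-fold lower in larvae, at 222, 232 and 204 CPM against 148 and 146 CPM. The ultraviolet damage sensor gene ddb2 was 1.72-fold lower, at 60.9, 62.8 and 55.8 CPM against 32.7 and 36.9 CPM. All larval controls lay below all embryo controls for these 3 genes.

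The gene for the transcription-coupled repair factor ercc6 and the gene for the small nuclease subunit ercc1 were higher in larvae. For ercc6 the controls held 3.31, 2.48 and 2.89 CPM at 3.3 hpf and 22.6 and 23.3 CPM at 96 hpf, 7.93-fold more, at the 92.3rd percentile of all genes. For ercc1 they held 2.70, 4.90 and 3.17 CPM and then 9.67 and 7.44 CPM, 2.39-fold more. The larval controls of ercc1 lay above its embryo controls, while those of ercc4, whose protein it binds, lay below. The lesion verification gene xpa overlapped between the ages, at 2.98, 3.80 and 4.04 CPM and at 3.49 and 3.40 CPM.

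**Figure D1:**
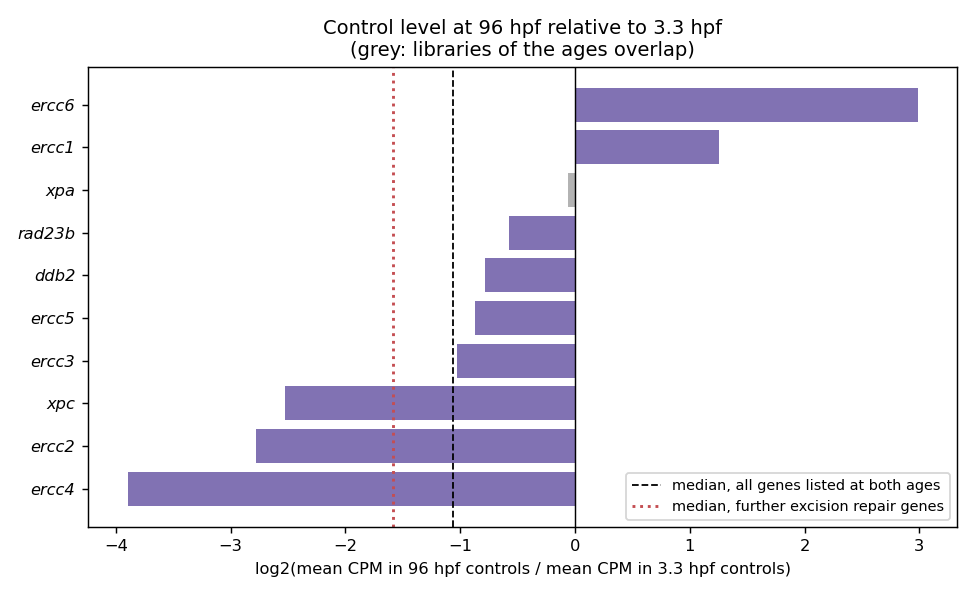
Bars give log2 of the mean CPM in 96 hpf controls over that in 3.3 hpf controls for the 10 members, with lines at the median of all genes listed at both ages (-1.06) and of the further excision repair genes (-1.59). Bars run from -3.90 for ercc4 to 2.99 for ercc6, and xpa is grey because its libraries overlap between the ages.

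Across the 4 groups, xpc, ercc2, ercc4 and ercc5 had all 6 libraries of 3.3 hpf above all 4 of 96 hpf, and so did ercc3 and rad23b. For ercc6 and ercc1 all 4 larval libraries lay above all 6 embryo libraries. The order of the 4 groups was mixed for ddb2, where embryos after BaP (29.5 to 51.0 CPM) and larvae after BaP (39.5 and 51.0 CPM) overlapped. For xpa all 4 groups overlapped, between 2.70 and 4.56 CPM.

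**Figure D2:**
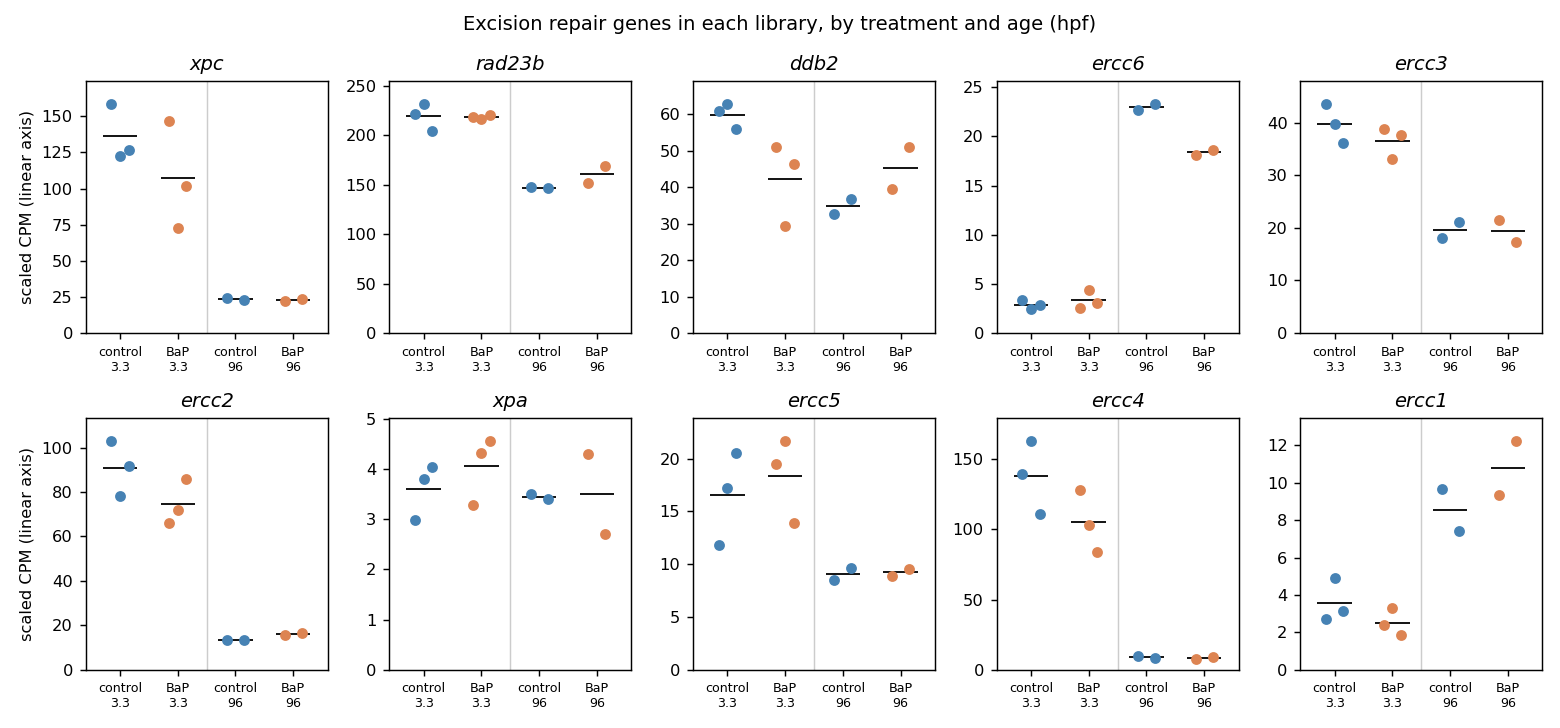
Each panel plots 1 gene in scaled CPM on a linear axis from 0, with 1 point per library, blue for control and orange for BaP, and a bar at the group mean. The step between ages is wide for ercc4, ercc2, xpc and ercc6, while control and BaP points overlap at 1 age or both for every gene but ddb2.

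The transcript tables showed which annotated forms made up these levels. At both ages 5 of the members had 1 listed transcript (xpc, ercc1, ercc4, ercc5 and rad23b), and the other 5 had up to 3. How the authors divided reads between overlapping transcripts is not given in the sources used here, so the shares are those of their method. For xpa, the form xpa-003 made up 70.6%, 60.6% and 75.2% of the gene in 3.3 hpf controls, and xpa-001 made up 69.4% and 84.0% in larval controls. The main form of xpa therefore differed between ages, at levels of 0.54 to 3.05 CPM per form, although the gene sums overlapped. The form ercc3-201 was listed at 96 hpf alone, where it held 17.1% and 13.7% of the gene in controls. The form ercc6-001 was listed at 3.3 hpf alone, at 0.0032 to 1.74 CPM in controls. In ddb2, ddb2-201 was the main form in controls of both ages, at 80.7 ± 2.52% (n = 3) and 74.5 ± 1.41% (n = 2).

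The second comparison asked whether BaP changed the repair transcripts at 3.3 hpf. None of the 10 members passed limma's Benjamini-Hochberg adjusted p of 0.05, and none of all genes did (0%). At an unadjusted p under 0.05 there was 1 member, ddb2, where 4.92% of all genes passed. Members below control numbered 7 of 10, beside 49.0% of all genes, and their median log2 difference was -0.20, beside 0.01 over all genes. All log2 differences were taken after adding 0.5 to the CPM, so those of the lowest genes are understated.

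Among the damage recognition genes, ddb2 had its groups apart and xpc did not. ddb2 stood at 60.9, 62.8 and 55.8 CPM in controls and at 51.0, 29.5 and 46.4 CPM after BaP. Every BaP library lay below every control, as it did for 5.30% of all genes, while 0 members had every BaP library above, beside 6.24% of all genes. The lowest was BaP replicate 2. The log2 difference was -0.53 (SE 0.21, 95% interval -1.02 to -0.04), with a limma adjusted p of 0.907. Without BaP replicate 2 it was -0.29, with an adjusted p of 0.892 and a range of 0.583 to 0.999 over the alternatives run. xpc stood at 159, 123 and 127 CPM in controls and at 146, 72.7 and 102 CPM after BaP, so the groups overlapped (log2 -0.39, SE 0.24). rad23b stood at 218, 217 and 220.0 CPM after BaP, within the range of its controls, and its 95% interval of -0.19 to 0.18 is the narrowest of the 10 at this age.

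The interval of every member but ddb2 included 0, in the later steps as well as for the recognition genes xpc, rad23b and ercc6. ercc4 stood at 139, 163 and 111 CPM in controls and 128, 103 and 83.9 CPM after BaP (log2 -0.40, 95% interval -0.84 to 0.05). ercc2 stood at 103, 78.3 and 91.6 CPM and then 66.1, 72.0 and 85.7 CPM (log2 -0.29, 95% interval -0.62 to 0.05). In both genes 2 of the 3 BaP libraries lay below every control. The other log2 differences were -0.43 for ercc1, -0.12 for ercc3, 0.15 for xpa, 0.16 for ercc5 and 0.16 for ercc6, each with an SE of 0.14 to 0.34. For ercc1 the interval ran from -1.21 to 0.36, which covers differences of either sign.

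The 3.3 hpf libraries also differed in the amount of early zygotic RNA. Of 15 early zygotic markers 8 were listed, and their summed level was 147, 4.79 and 27.4 CPM in controls and 6.97, 462 and 33.0 CPM in BaP embryos. The markers her3 and cldne were at 0 in control replicate 2, and tbx16 was at 0 in control replicate 3 and BaP replicate 1. BaP replicate 2, the highest, held the lowest ddb2, xpc and ercc3 of the 6 libraries, but also the highest ercc5 (21.7 CPM) and ercc6 (4.41 CPM). The maternal markers, with 10 of 10 listed, summed to 5183, 6884 and 5397 CPM in controls and to 6594, 4950 and 5430 CPM after BaP, lowest in the same library. The part of either in the result was not tested. With control replicate 1 and BaP replicate 2 both left out, the log2 difference was -0.28 for ddb2 and -0.03 for xpc, and 0 members were called.

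In the third comparison the same question was put to larvae. None of the 10 members passed limma's adjusted p of 0.05, where 0.423% of all genes did, and none had an unadjusted p under 0.05, where 15.8% of all genes did. The members lay 5 above and 5 below control, beside 47.8% of all genes below. Their median log2 difference was 0.01, beside 0.02 over all genes. BaP larvae did not overlap controls for 3 members that were higher (ddb2, ercc2 and rad23b) and 1 that was lower (ercc6), beside 26.0% and 24.3% of all genes.

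Among larvae, ddb2 had the largest difference of the 10. It stood at 32.7 and 36.9 CPM in controls and at 39.5 and 51.0 CPM after BaP, with BaP replicate 2 the highest. The log2 difference was 0.37 (SE 0.16, 95% interval -0.01 to 0.74), with a limma adjusted p of 0.326. Without BaP replicate 1 the adjusted p was 0.0301 (log2 0.54). In that fit the lone BaP library is assumed to vary like the controls, and 3226 genes were called. Over all alternatives run the adjusted p of ddb2 ran from 0.0301 to 0.928, and without BaP replicate 2 the log2 difference was 0.18. The helicase gene ercc2 had 13.3 CPM in both controls and 15.5 and 16.7 CPM after BaP (log2 0.27, 95% interval -0.12 to 0.66).

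The transcription-coupled factor ercc6 had the lowest log2 difference at 96 hpf. It stood at 22.6 and 23.3 CPM in controls and 18.1 and 18.6 CPM after BaP, and the 4 values kept a gap between the groups. The log2 difference was -0.31 (SE 0.15, 95% interval -0.66 to 0.04, limma adjusted p = 0.351). Leaving out any 1 library left it between -0.33 and -0.30. The nuclease genes ercc4 (log2 -0.13), ercc1 (0.32) and ercc5 (0.03) overlapped between the groups, and so did xpa (-0.01), xpc (-0.05) and ercc3 (-0.01). For xpc the interval of -0.39 to 0.29 bounds the change, and for xpa that of -0.68 to 0.66 leaves it wide.

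**Figure D3:**
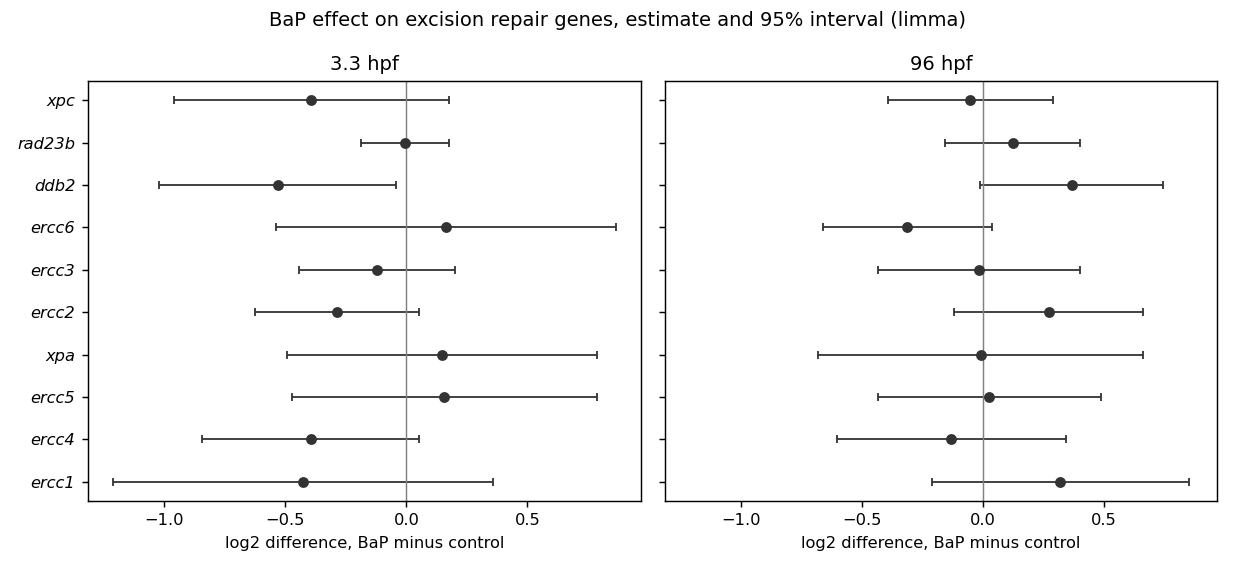
Points give the log2 difference between BaP and control for the 10 members at 3.3 hpf (left) and 96 hpf (right), and bars its 95% interval from limma. The only interval that misses 0 is that of ddb2 at 3.3 hpf, -1.02 to -0.04, and its point lies on the other side of 0 at 96 hpf.

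BaP replicate 2 stood apart from the other larvae, with 52.9 on the first principal component of all genes against 4.10 for BaP replicate 1 and -20.7 and -36.3 for controls. It also held more digestive organ RNA. The 11 of 11 listed exocrine pancreas and gut markers summed to 1925 and 1807 CPM in controls and to 2526 and 3252 CPM in BaP replicates 1 and 2. The 7 listed of 8 liver markers summed to 3633 and 3558 CPM and then 3765 and 6088 CPM. No marker was at 0, and 1 was called, zgc:66382, the serine protease gene prss59.1 in the current reference (log2 0.86, limma adjusted p = 0.0374). The liver fatty acid binding gene fabp10a had log2 1.67 (limma adjusted p = 0.0513). The members ddb2, ercc1, ercc2 and rad23b were also highest in BaP replicate 2, while xpa (2.70 CPM) and ercc3 (17.2 CPM) were lowest there. The part of these markers in the values of the members was not tested.

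At the level of transcripts, 0 of the 16 forms of the members listed at each age passed limma's adjusted p of 0.05 at 3.3 or at 96 hpf, where 0% and 0.00384% of all transcripts did. In larvae, both forms of ercc3 had groups that did not overlap, in opposite directions. The form ercc3-201 stood at 3.09 and 2.88 CPM in controls and 8.24 and 5.32 CPM after BaP (log2 1.03, SE 0.32, limma adjusted p = 0.449). The form ercc3-001 stood at 14.96 and 18.15 CPM and then 13.3 and 12.2 CPM (log2 -0.36), so the gene's sum overlapped. The share of ercc3-201 was 17.1% and 13.7% in controls and 38.2% and 30.4% after BaP.

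In ddb2 the form ddb2-001 stood at 7.59 and 8.39 CPM in control larvae and 14.9 and 13.5 CPM after BaP (log2 0.79, SE 0.20, limma adjusted p = 0.442). Its main form ddb2-201 overlapped, at 24.7 and 27.0 CPM and then 23.0 and 36.1 CPM. At 3.3 hpf the main form was the one whose groups did not overlap, at 48.8, 52.4 and 44.2 CPM in controls and 38.0, 26.5 and 33.0 CPM after BaP (log2 -0.58, SE 0.17, limma adjusted p = 0.927). The forms ddb2-001 and ddb2-002 also had lower means after BaP, with overlap (log2 -0.32 and -0.64). The shares of the ercc2 forms also did not overlap for ercc2-001 in larvae. ercc2-001 held 52.1% and 47.7% of the gene in controls and 33.2% and 36.7% after BaP, with the other 2 forms above control in both BaP libraries. In larvae the levels of ddb2-002, ercc5-001 and rad23b-201 were also higher without overlap, and that of ercc6-201 was lower. Groups that do not overlap were common in this table, at 23.9% of transcripts higher and 22.4% lower at 96 hpf, against 6.05% and 5.22% at 3.3 hpf. These are shares of transcripts by level, and no such background was counted for the percent of a gene. An unadjusted p under 0.05 was reached by 4.85% of all transcripts at 3.3 hpf and 10.7% at 96 hpf.

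**Figure D4:**
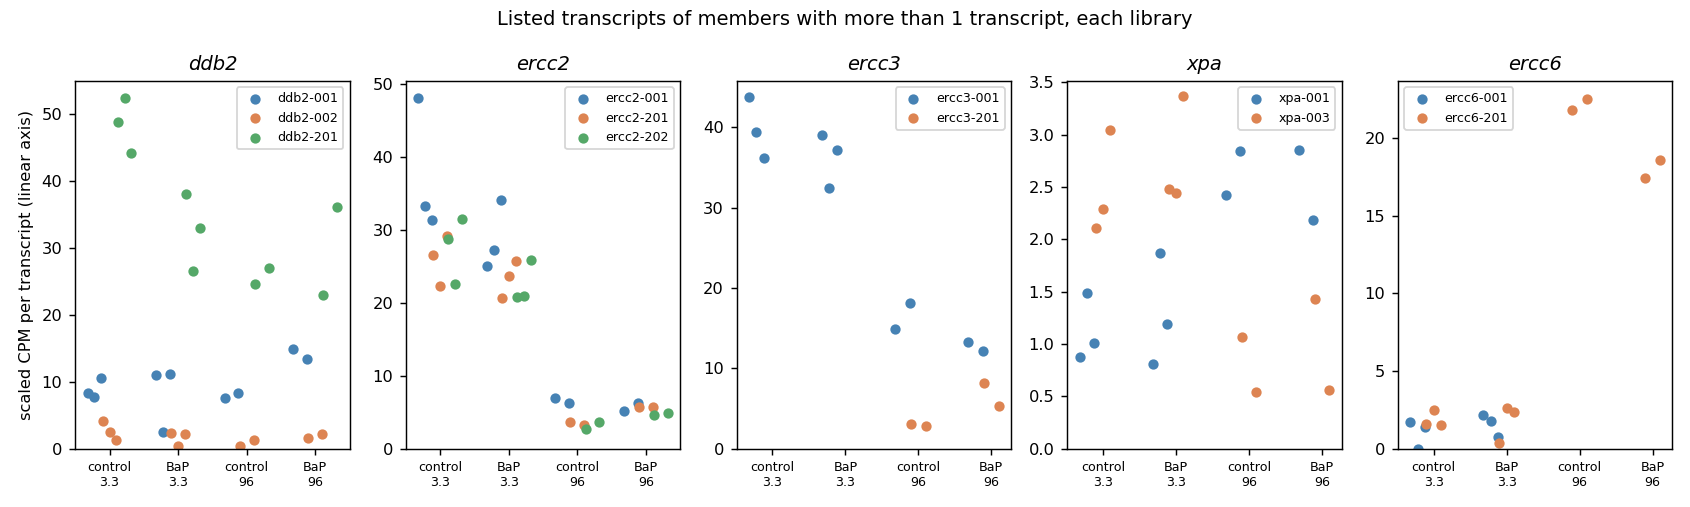
Points give the scaled CPM of each listed transcript in each library for the 5 members with more than 1 listed form, on linear axes from 0, by treatment and age. ercc3-201 appears at 96 hpf only and lies higher in both BaP larvae (8.24 and 5.32 CPM), while the main form of xpa differs between the ages.

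The fourth comparison asked whether the effect of BaP differed between the ages. No member passed limma's adjusted p of 0.05 for the interaction, where 0.0234% of the 12800 genes listed at both ages did, and 2 had an unadjusted p under 0.05, where 11.6% of genes did. For ddb2 the effect at 96 hpf exceeded that at 3.3 hpf by a log2 of 0.90 (SE 0.31, 95% interval 0.21 to 1.58, unadjusted p = 0.0153, limma adjusted p = 0.332). All 3 BaP embryo libraries lay below their controls and both BaP larval libraries lay above theirs. Over all genes 5.30% were lower without overlap at 3.3 hpf and 26.0% higher at 96 hpf. The share of genes with both was not counted. The pattern was not particular to ddb2, since the further excision repair genes ercc8, cetn4 and gtf2h4 had it too, and LIG3 had the reverse. For ercc2 the difference was 0.56 (SE 0.22, unadjusted p = 0.0283, limma adjusted p = 0.389), with groups that overlapped at 3.3 hpf. For ercc6 it was -0.48 (SE 0.36), and for rad23b 0.13 with a 95% interval of -0.15 to 0.40.

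The rest of the pathway was described with 42 further excision repair genes, which gave 42 entries at 3.3 hpf and 44 at 96 hpf. None passed limma's adjusted p of 0.05 at either age, where 0% of all genes did at 3.3 hpf and 0.423% at 96 hpf. Of the 42 entries listed at both ages 38 were lower in larval than in embryo controls and 2 were higher, beside 61.3% and 27.2% of all genes, with a median log2 of -1.59 beside -1.06. The 2 higher were rad23aa, a second homologue of yeast RAD23, at 1.39-fold, and the ubiquitin ligase scaffold cul4a at 1.82-fold. By step, with members included, all 11 TFIIH entries and all 18 entries for gap filling and ligation were lower, with medians of -2.08 and -2.01. The 12 entries for damage recognition across the genome had a median of -0.65, with 9 lower. Of 4 entries for transcription-coupled recognition, ercc8 (2.37-fold lower), uvssa and xab2 were lower and ercc6 was higher. Markers of dividing cells, with 17 entries at both ages, summed to 5985 to 6568 CPM in 3.3 hpf controls and to 1143 and 1276 CPM in larval controls. The sum is weighted to abundant transcripts, led at 3.3 hpf by ccnb1 (control mean 1596 CPM), which is also among the maternal markers. By entry 11 of the 17 were lower in larval controls and 3 were higher, with a median log2 of -1.33. The gene pcna is in both this list and the further excision repair list. The part of dividing cells in the levels of repair genes was not tested.

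After BaP at 3.3 hpf, 31 of the 42 further entries lay below control, beside 49.0% of all genes (median log2 -0.10). Without overlap 6 were lower and 2 higher, beside 5.30% and 6.24% of all genes. The smallest p belonged to ercc8, the partner of ercc6 in transcription-coupled repair, at 24.3, 30.4 and 22.6 CPM in controls and 13.7, 11.1 and 22.5 CPM after BaP (log2 -0.74, SE 0.28, limma adjusted p = 0.907). Its groups were separated by a narrow margin, set by BaP replicate 3 and control replicate 3. The replicative polymerase gene pole (log2 -0.35) and the ligation scaffold gene xrcc1 (log2 -0.34) followed. At 96 hpf 27 of 44 entries lay above control and 17 below, beside 47.8% of all genes below (median log2 0.08). Without overlap 8 were higher and 4 lower, shares under the 26.0% and 24.3% of all genes. The smallest p belonged to rbx1, a ring protein of the DDB2 ubiquitin ligase, at 62.3 and 57.2 CPM in controls and 70.1 and 88.5 CPM after BaP (log2 0.40, limma adjusted p = 0.277). DDB1 (2 of 2), from a pair of entries that could share reads, had log2 -0.60 (limma adjusted p = 0.280), while DDB1 (1 of 2) had -0.03. The centrin gene cetn4 had log2 0.46 (limma adjusted p = 0.337), the highest of the list.

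By step, with members included and 0 called, the entries below control at 3.3 hpf were 11 of 12 for recognition across the genome, 3 of 4 for transcription-coupled recognition and 9 of 11 for TFIIH. They were 4 of 7 for verification and incision and 11 of 18 for gap filling and ligation, beside 49.0% of all genes. At 96 hpf the entries below control were, in the same order, 7 of 13, 3 of 4, 2 of 11, 2 of 7 and 8 of 19, beside 47.8% of all genes. The steps were drawn up after values were seen, and the difference between ages was not tested for a step.

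**Figure D5:**
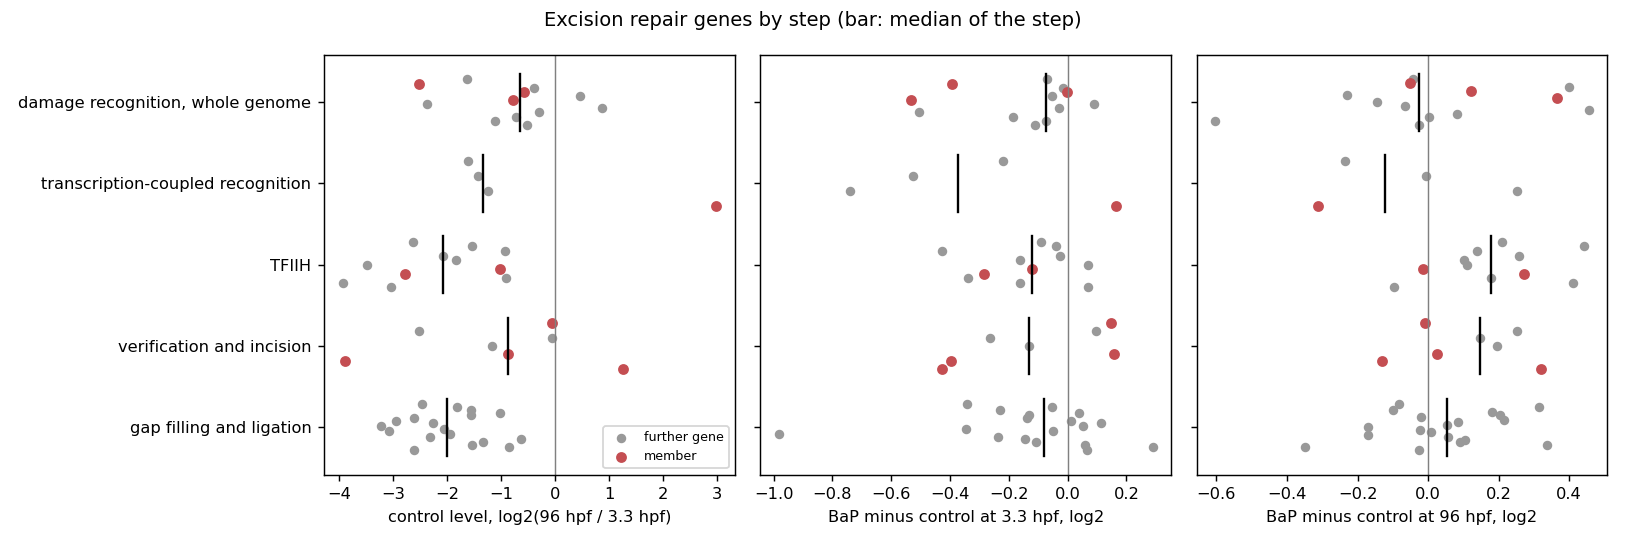
Points give excision repair genes by step, red for the 10 members and grey for further genes, with a bar at the median of the step. The left panel plots the log2 ratio of control levels at 96 over 3.3 hpf, and the middle and right panels the log2 difference between BaP and control at 3.3 and 96 hpf. ercc6 at 2.99 lies apart from the other transcription-coupled genes in the left panel.

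Other repair pathways had 0 called genes at either age by limma's adjusted p of 0.05. Of all genes 0% were called at 3.3 hpf and 0.423% at 96 hpf. At 3.3 hpf their median log2 differences were -0.15 for base excision repair (16 entries), 0.00 for mismatch repair (9), -0.11 for strand-break repair (20) and -0.03 for translesion synthesis (9). At 96 hpf they were 0.15 (17 entries), -0.06 (8), 0.11 (19) and 0.02 (8). The smallest p at 3.3 and 96 hpf belonged to the abasic site nuclease entry APEX2 (2 of 2) (log2 -0.48 and 0.51), to pms1 and msh6 of mismatch repair (-0.34 and -0.38), to XRCC2 and xrcc6 of strand-break repair (-0.73 and 0.42) and to poli and ube2a of translesion synthesis (-0.37 and 0.23). In human cells p53 raises DDB2 and XPC, so p53 and its targets were described too. At 3.3 hpf 3 of 17 entries lay below control, beside 49.0% of all genes, and at 96 hpf 6 of 21, beside 47.8%, with 0 called and medians of 0.22 and 0.25. In log2 deviation from an entry's mean over the 6 libraries of 3.3 hpf, the 17 entries averaged 0.53 in BaP replicate 2. BaP replicates 1 and 3 had -0.01 and -0.18, and controls 0.10, -0.26 and -0.18. BaP replicate 2 also held the most early zygotic RNA, and the part of that was not tested. The cyclin gene ccng1 had the smallest p at 3.3 hpf (log2 0.25, SE 0.07, limma adjusted p = 0.907), and the stress gene gadd45aa at 96 hpf (log2 0.78, SE 0.22, limma adjusted p = 0.214). Without overlap 2 of the 17 entries were higher and 0 lower at 3.3 hpf, beside 6.24% and 5.30% of all genes. At 96 hpf 11 of the 21 were higher without overlap and 2 lower, beside 26.0% and 24.3% of all genes. The cell cycle inhibitor gene cdkn1a, a main p53 target in human cells and among the lower ones, was named after its values were seen. It stood at 34.0 and 36.8 CPM in control larvae and 30.3 and 24.6 CPM after BaP, lower without overlap (log2 -0.37, SE 0.16, limma adjusted p = 0.313). Among the 11 higher entries was mdm2, also named after its values were seen. It stood at 34.2 and 46.7 CPM in control larvae and 56.0 and 57.4 CPM after BaP (log2 0.50, SE 0.17, limma adjusted p = 0.247).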

How the data were processed

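The files hold CPM as deposited by the authors, not counts, and every column was found to total 1000000. Per the submitters' processing notes TopHat, Partek and edgeR were used with the Zv9 build, with no versions or roles. Per the file headers and annotation column, the 8 tables hold genes and transcripts under Ensembl release 70 or RefSeq; Ensembl gene tables are the main ones. Every listed gene exceeds 1 CPM in at least 3 libraries (3.3 hpf) or 2 (96 hpf). Depth was taken from the CPM of 1 read. Between 36.1% and 65.6% of values were whole multiples of it, within 0.05 reads, so reads were not recovered and no count test was run. A total of 0 columns were left unmapped; 6 RefSeq columns give the group only.

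CPM were scaled by trimmed means (30% of log ratios, 5% of levels) within an age and tested with limma 3.58.1 in R 4.3.3 on log2(CPM + 0.5), with a trend of the spread and Benjamini-Hochberg adjustment over all genes at 0.05. The interaction was fitted over all 10 libraries. All members are named; of the further excision repair list the called genes and the 3 smallest p at each age, and of the other lists the called genes and the smallest p. Further genes, such as uvssa, xab2, rad23aa, cul4a and fellow entries, were named after their values were seen, as were the steps of the pathway. Members and lists were chosen with earlier results of these data known. Symbols were matched directly, through synonyms of a current reference (assembly GRCz12tu), or as numbered copies, without coordinates. Coordinates of that reference served only to find genes whose spans overlap those of members. No sequences are shown. Replicate numbers did not pair the samples at 3.3 hpf, where same-numbered libraries deviated from their group means with correlations of -0.44, -0.43 and -0.01. Correlations of differently numbered libraries ran from -0.11 (control 3 with BaP 2) to 0.47 (control 1 with BaP 2). At 96 hpf the correlation of same-numbered libraries was -0.26. With 2 libraries a group the deviations mirror each other, so both replicate numbers give this same value, which cannot decide on pairing.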

Additional observations from a re-analysis of the deposited data

Results flagged for a closer look

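The effect of BaP on ddb2 was singled out because every BaP library lay below its controls at 3.3 hpf and every BaP library lay above them at 96 hpf. Taken singly, these were met by 5.30% and 26.0% of all genes, and the share that met both was not counted. Both were also met by ercc8 (log2 -0.74 at 3.3 hpf and 0.25 at 96 hpf), cetn4 (-0.51 and 0.46) and gtf2h4 (-0.43 and 0.14). In base excision repair APEX2 (2 of 2) met both (-0.48 and 0.51). LIG3 had the reverse, higher at 3.3 hpf and lower at 96 hpf without overlap (0.29 and -0.35). For ddb2 the effect at 96 hpf minus that at 3.3 hpf was 0.90 on the log2 scale, from -0.53 and 0.37. The test of that difference did not pass (limma adjusted p = 0.332), and over the alternatives run the adjusted p ran from 0.182 to 0.927. Dixon's test for a single outlying library was not run, with 3 libraries a group at 3.3 hpf and 2 at 96 hpf.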

How the results depend on the processing

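No member was called at 3.3 hpf or in the difference between ages under any alternative run, and 7 to 8 members were lower in larval controls when 1 library was left out. At 96 hpf 80 genes were called, against 38 on CPM as deposited, 2 with no trend of the spread, and 32 to 3226 with 1 library left out (leaving out control replicate 1 gave 129 and control replicate 2 gave 32, BaP replicate 1 gave 3226 and BaP replicate 2 gave 247). Members called then numbered 0 to 1, the 1 being ddb2 without BaP replicate 1. At 3.3 hpf 0 to 1 genes were called with 1 library left out, the 1 without BaP replicate 2. The difference between ages had 3 genes called, against 1 with no trend and 0 to 110 with 1 library left out (110 without BaP replicate 1 of 96 hpf). With a replicate block, 155 genes and 0 members were called at 96 hpf, 0 genes at 3.3 hpf and 0 in the difference between ages. Same-numbered 96 hpf libraries correlated negatively, and with the crossed pairing as a block, chosen after seeing the data, 2179 genes and 0 members were called.

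Directions turned for the following members, none of them called. The log2 difference of rad23b at 3.3 hpf was 0.024 in the RefSeq table, and that of ercc5 at 96 hpf was -0.061 on CPM as deposited. In the difference between ages ercc3 was -0.046 in the RefSeq table. Without control replicate 1 and BaP replicate 2 of 3.3 hpf, left out after seeing the data, values were -0.014 for xpa, 0.014 for ercc3, -0.19 for ercc5 and 0.011 for rad23b. Leaving out 1 library gave at 3.3 hpf -0.050 to 0.34 for ercc5, -0.025 to 0.31 for ercc6 and -0.039 to 0.050 for rad23b. It gave at 96 hpf -0.31 to 0.28 for xpa, -0.19 to 0.14 for ercc3 and -0.058 to 0.10 for ercc5. In the difference between ages it gave -0.063 to 0.27 for ercc3, -0.32 to 0.077 for ercc5 and -0.46 to 0.14 for xpa, and for the levels of xpa in controls -0.18 to 0.026. The cause was not tested. Transcript tests were also added after seeing the data. With 2 libraries a group at 96 hpf and an estimated 45 to 102 reads per library for xpa over both ages, small differences were not detectable.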
